A study of Mus musculus with 6 samples.

Results

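Smooth muscle and pericyte contractile genes were examined in whole embryonic mouse kidneys that lack Wnt4. The 9 genes chosen were Acta2, Actg2, Tpm1, Tagln, Cnn1, Smtn, Cald1, Myh11 and Pdgfrb. Members were all probe sets of the array whose platform annotation, updated to current names, gives 1 gene symbol among these. This found 8 probe sets, 1 for each of 8 genes, among 12422 probe sets of genes, and no probe set for Cald1. Of the 8, 7 passed a filter on low signals and were tested, and Cnn1 did not pass it.

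Affymetrix MG_U74Av2 arrays, which carry 1 sample each, measured RNA of the metanephros (the embryonic kidney) at E14.5, with no treatment, in 2 Wnt4 mutant and 4 wild-type samples. The mutant carried the Wnt4tm1Amc allele, is labelled strain 129, and each of its samples pooled 8 to 10 kidneys from 4 to 5 embryos. Each wild-type sample pooled 2 kidneys and has the strain label CD-1. Genotype, strain label and pool size therefore cannot be told apart. The arrays also differed in BioB, a bacterial control RNA added at hybridization. The middle probe set of BioB read 930 and 950 on mutant arrays, against 1645 to 1903 on wild-type arrays. The part of this difference in the results was not tested. RNA came from whole kidneys, with all their cell types together. With pooled kidneys as replicates, p-values measure the spread between these pools. Values are linear probe set signals with each array at a common scale, and differences are mutant minus wild type on log2(signal + 16), which understates changes of low signals. A call means an adjusted p under 0.05 from limma, with Benjamini-Hochberg adjustment over all 7981 tested probe sets.

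Smooth muscle cells shorten when filaments of the myosin Myh11 pull on filaments of the actins Acta2 and Actg2. Tropomyosin (Tpm1), caldesmon (Cald1), calponin (Cnn1), transgelin (Tagln) and smoothelin (Smtn) bind the actin filaments and stabilise them or regulate their use. Pericytes, which wrap small vessels, and mesangial cells need the receptor Pdgfrb, which answers PDGF-B from endothelium. In the embryonic kidney such cells arise from Foxd1-expressing stroma, and Wnt4 has been linked to smooth muscle fate in the medullary stroma through Bmp4. Many of these genes are driven by the factor SRF with its partner myocardin at a DNA motif named the CArG box.

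Wnt4 itself read 74.2 and 34.5 in mutant kidneys, against 829, 739, 946 and 699 in wild-type kidneys. The mutant arrays therefore went with their labels (limma, adjusted p = 6.11e-05). Both mutant signals were below the filter level, so the size of the log2 difference (-3.59) rests on the offset and on each mutant array, and ran from -4.01 to -2.89 over the alternatives. Of 14 defining genes of the embryonic kidney, 11 had a probe set, and all 11 exceeded the filter level on at least 1 array. That level is the 40th percentile of each array, a low bar that does not identify the tissue. Of 10 tested, Cited1 fell (-0.76, limma, adjusted p = 0.00818), Foxd1 rose (1.75, adjusted p = 4.93e-05) and 8 did not pass. Their sum with the untested gene was 14134 and 13894 in mutant kidneys, against 10572 to 12113 in wild-type kidneys. The median difference over all tested probe sets was 0.020.

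Of the 7 tested members, 1 fell (Tagln), 0 rose and 6 did not pass by limma. Calls made up 10.8% of all tested probe sets, 6.11% lower and 4.65% higher. At an unadjusted p under 0.05, 3 members were lower and 0 higher, against 14.2% and 12.3% of all tested probe sets. The members' differences ranged from -1.32 to 0.24. Their median, -0.46, is the value of Myh11, which passed the filter through wild-type arrays alone, and nothing is read from it. For 3 members (Tagln, Smtn and Pdgfrb) the mutant pair was under the whole wild-type range, for 0 it was over it, and for 4 the groups overlapped, while 18.8% of all tested probe sets were under and 18.6% over. In whole kidneys, fewer cells of a type and less RNA per cell cannot be told apart.

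**Figure D1:**
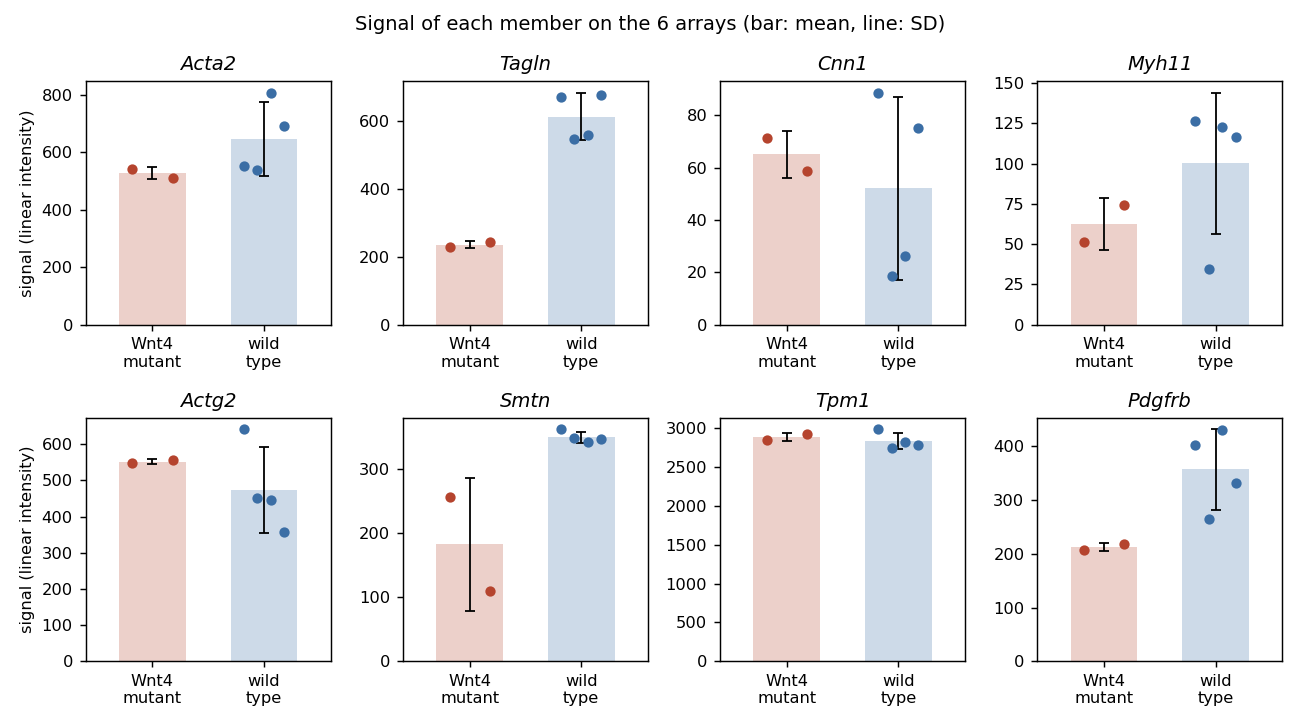
Signal (linear intensity, y axis from 0, a scale of its own in each panel) of the 8 measured members, with 1 point per array, bars at the mean and lines for the SD, in 2 Wnt4 mutant and 4 wild-type samples. For Tagln the mutant arrays, at 228 and 242, lie far below the wild-type arrays, at 546 to 677, while for Acta2, Actg2 and Tpm1 the groups overlap.

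Tagln encodes transgelin (SM22-alpha), an early marker of the smooth muscle lineage that binds actin filaments. Its probe set read 228 and 242 in mutant kidneys, against 669, 546, 556 and 677 in wild-type kidneys. The mutant pair lay close together, and the lowest wild-type array was more than the mutant pair's own spread above it. The means were 235 ± 10.3 in mutant (SD, n = 2) and 612 ± 70.2 in wild-type kidneys (SD, n = 4). Tagln fell by 1.32 on the log2 scale (SE 0.14, 95% interval -1.64 to -0.99; limma, adjusted p = 6.61e-04), which is 2.49-fold lower on that scale. Over 16 alternative settings its difference ran from -1.37 to -1.17 and its adjusted p from 1.87e-04 to 0.0115.

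The actins of smooth muscle did not follow it past the threshold. Acta2, the alpha smooth muscle actin, read 542 and 512 in mutant kidneys, against 551, 537, 807 and 691 in wild-type kidneys. The mutant values lay at the lower end of the wild-type range, and wild-type replicates 3 and 4 stood higher than the other wild-type arrays. The difference was -0.27 ± 0.17 (SE; 95% interval -0.66 to 0.13; limma, adjusted p = 0.376), an interval that holds 0. Without wild-type replicate 3 the difference was -0.16 (adjusted p = 0.585), and with a replicate block it was -0.045 (adjusted p = 0.898). Wild-type replicates 3 and 4 have no mutant array of the same number. Here and below, the difference with a replicate block therefore rests on replicates 1 and 2 of each group. The interval of Acta2 has its lower end above the whole interval of Tagln, which is a description with no test.

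Tagln was also set against other members within each array, as a description, since it was chosen as the member that passed. The log2 value of Tagln minus that of Acta2 was -1.20 and -1.03 on mutant arrays, against 0.27, 0.024, -0.52 and -0.030 on wild-type arrays. Both mutant values were below all wild-type values, and the means differed by -1.05. Against Tpm1 and Actg2 the corresponding differences were -1.34 and -1.56. No test is read from these values. With 2 arrays against 4, an exact permutation p that doubles the smaller tail cannot be below 0.133.

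The start regions of Acta2 and of the cardiac actin Actc1 are printed because these genes encode close actins and had different values in the mutant. The Acta2 window was set as 250 bases before to 50 bases after a listed start (GRCm38.p6, chr19:34255324-34255623, minus strand). The Actc1 window (GRCm38.p6, chr2:114052826-114053125, minus strand), chosen after its values were seen, is cut alike. The RefSeq span of Acta2, chr19:34240336-34255585, ends inside the Acta2 window, so the listed start is not that end. Distances below are counted from the listed start and not from the RefSeq end. Capitals mark stretches of 10 bases that match the CArG box with at most 1 base off. The printed strand was searched, which covers both strands for this palindromic motif.
Acta2: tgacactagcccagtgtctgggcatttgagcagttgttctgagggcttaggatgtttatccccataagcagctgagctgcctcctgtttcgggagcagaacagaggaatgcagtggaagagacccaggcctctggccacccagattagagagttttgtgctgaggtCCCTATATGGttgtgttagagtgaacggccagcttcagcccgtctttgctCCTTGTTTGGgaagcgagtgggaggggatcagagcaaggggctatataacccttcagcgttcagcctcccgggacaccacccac
Actc1: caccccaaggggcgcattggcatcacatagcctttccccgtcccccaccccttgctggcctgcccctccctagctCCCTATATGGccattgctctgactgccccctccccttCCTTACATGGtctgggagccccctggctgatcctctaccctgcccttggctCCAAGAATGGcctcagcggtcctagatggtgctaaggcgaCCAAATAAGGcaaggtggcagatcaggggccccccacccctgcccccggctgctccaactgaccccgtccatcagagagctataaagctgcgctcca
Acta2 has 2 such stretches, CCCTATATGG and CCTTGTTTGG, which begin 84 and 34 bases before the listed start, and no exact match. Actc1 has 4, of which CCAAATAAGG, 47 bases before the listed start, matches exactly. Windows of 5 members were searched, 6 windows in all because Cald1 has several starts. Tpm1 has 2 stretches with 1 base off, 1 window of Cald1 has 1, and Cnn1 and Smtn have 0. Windows of Tagln, Myh11, Actg2 and Pdgfrb were not analysed here. Of all 32851 windows, 21.1% hold at least 1 stretch with at most 1 base off, 3.7% hold at least 2, and 1.63% hold an exact match. A match describes the letters of the window and does not show binding.

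Actg2, the gamma actin of enteric and urogenital smooth muscle, read 547 and 557 in mutant kidneys, against 641, 452, 447 and 357 in wild-type kidneys. The mutant pair lay within the wild-type range, below wild-type replicate 1 and above the others. Its difference was 0.24 ± 0.20 (SE; 95% interval -0.22 to 0.70; limma, adjusted p = 0.507). It was 0.39 without wild-type replicate 1, 0.12 without wild-type replicate 4, 0.042 on leaving out wild-type replicates 2 and 4, and 0.035 with a replicate block. The _f suffix of its probe set name marks a sequence family, so that signal of related actins can enter it. The striated actin Actc1 rose in the mutant, as given below with the relatives, and its part in the Actg2 signal was not tested.

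Tpm1, the alpha tropomyosin that lies along actin filaments in muscle and other cells, read 2839 and 2914 in mutant kidneys, against 2979, 2745, 2816 and 2772 in wild-type kidneys. All 6 arrays lay close together. The difference was 0.025 ± 0.081 (SE; limma, adjusted p = 0.880), and its 95% interval of -0.16 to 0.21 is the narrowest of the tested members. Its sign turned with each array centred on its median (-0.010).

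**Figure D2:**
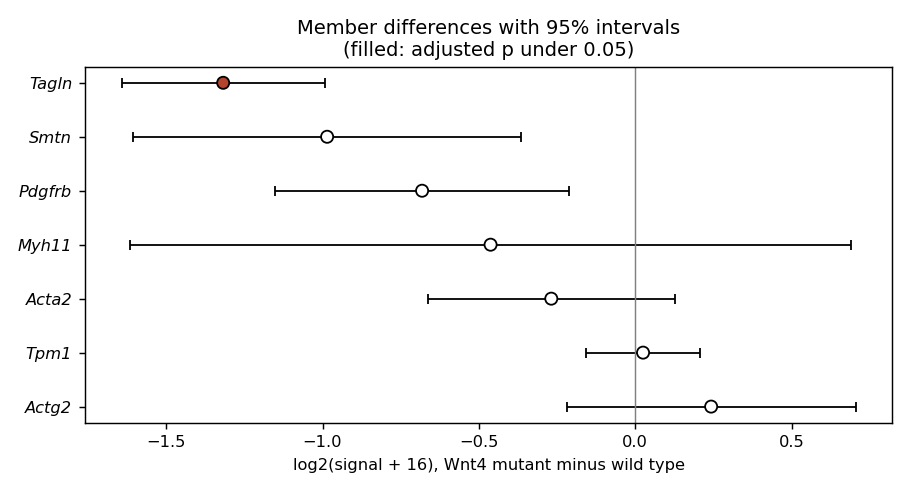
Difference of each tested member on the log2(signal + 16) scale, Wnt4 mutant minus wild type (x axis), with 95% limma intervals that are not adjusted for multiple tests. Tagln (filled) is the member past the threshold. The intervals of Smtn and Pdgfrb also lie below 0, and those of Myh11, Acta2, Tpm1 and Actg2 hold 0.

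Smtn, smoothelin, is an actin-binding protein of contractile smooth muscle cells. It read 256 and 109 in mutant kidneys, against 362, 349, 342 and 347 in wild-type kidneys. The wild-type arrays agreed closely (350 ± 8.63, SD, n = 4), and the mutant arrays differed widely from each other (183 ± 104, SD, n = 2) while both lay below them. The difference was -0.99 ± 0.27 (SE; 95% interval -1.61 to -0.36; limma, adjusted p = 0.0531), just outside the threshold. The size rested on the mutant arrays. Without a mutant replicate, here and below, the mutant group is 1 array that is assumed to vary like the wild type. For Smtn, without mutant replicate 1 it was -1.55 (adjusted p = 0.00619), and without mutant replicate 2 it was -0.43 (adjusted p = 0.307). With both mutant arrays it passed with an offset of 64 (-0.81, adjusted p = 0.0470), quantile normalization (-1.02, 0.0431), arrays centred on their medians (-1.02, 0.0356) and array weights (-0.99, 0.0395).

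Myh11, the smooth muscle myosin heavy chain, had low signals. It read 51.4 and 74.2 in mutant kidneys, against 127, 34.7, 123 and 117 in wild-type kidneys. Both mutant arrays and wild-type replicate 2 were below the filter level of their arrays, which lay between 101.12 and 110.4 over the 6 arrays, so Myh11 was tested only because of the 3 other wild-type arrays. The difference was -0.46 ± 0.51 (SE; 95% interval -1.62 to 0.69; limma, adjusted p = 0.624). Without wild-type replicate 2 it was -0.82 (adjusted p = 0.169), without mutant replicate 1 it was -0.25 (adjusted p = 0.896), and with a replicate block -0.13 (adjusted p = 0.935).

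Cnn1, the smooth muscle calponin, was below the filter level on all 6 arrays. It read 71.4 and 58.8 in mutant kidneys, against 88.6, 18.6, 26.1 and 75.2 in wild-type kidneys. The mutant values lay within a wide wild-type range, with a difference of 0.41 between log2 means and no test. With no filter it did not pass (limma, adjusted p = 0.753).

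Pdgfrb, the platelet-derived growth factor receptor of pericytes and mesangial cells, read 207 and 218 in mutant kidneys, against 401, 264, 430 and 331 in wild-type kidneys. The mutant pair lay together below every wild-type array, of which replicate 2 was the lowest. The means were 212 ± 7.64 (SD, n = 2) in mutant and 356 ± 74.5 (SD, n = 4) in wild-type kidneys. The difference was -0.68 ± 0.21 (SE; 95% interval -1.15 to -0.21; limma, adjusted p = 0.0713). It passed with array weights (-0.75, adjusted p = 0.0228). Leaving out wild-type replicate 2 gave -0.81 (adjusted p = 0.0242), and leaving out replicates 2 and 4 gave -0.92 (0.0142). With a replicate block it was -0.58 (adjusted p = 0.188).

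The members' wild-type spread differed from gene to gene. The SD as a percentage of the mean over the 4 wild-type arrays was 2.47% for Smtn, 3.71% for Tpm1, 11.5% for Tagln, 19.8% for Acta2, 20.9% for Pdgfrb, 25.2% for Actg2, 43.8% for Myh11 and 67.0% for Cnn1. Wild-type replicate 2 was the lowest wild-type array for Acta2, Tagln, Cnn1, Myh11, Tpm1 and Pdgfrb, but not for Actg2 or Smtn. Myh11 and Cnn1, the genes with the widest spread, were below the filter level on 3 and all 6 arrays.

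Relatives of the members were compared because several members have close non-muscle or striated counterparts. Of 14 relatives, all had a probe set and 12 were tested. Of these, 4 rose, 0 fell and 8 did not pass, and the median difference was 0.18. Tpm2, 1 of the 4, is also in the list of other contractile genes below and is counted in both. Actc1, the cardiac actin that embryonic skeletal muscle also uses, read 2497 and 2306 in mutant kidneys, against 551, 379, 775 and 631 in wild-type kidneys, a rise of 2.05 ± 0.23 (SE; limma, adjusted p = 8.10e-04) at its brightest probe set, which also has the _f suffix. A second Actc1 probe set rose by 3.01 (adjusted p = 9.74e-04). The skeletal actin Acta1 read 264 and 171, against 47.4, 9.98, 146 and 9.30, and did not pass (2.17, adjusted p = 0.107). The non-muscle actins Actb (-0.39, adjusted p = 0.537) and Actg1 (-0.042, adjusted p = 0.863) did not pass either.

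Transgelins and PDGF receptors are given next, with no test of a member against its relative. Tagln2, a transgelin of many cell types, read 3268 and 3243 in mutant kidneys, against 3285, 3663, 3294 and 3712 in wild-type kidneys. It had -0.097 (95% interval -0.30 to 0.10; limma, adjusted p = 0.544), an interval that does not meet that of Tagln. Pdgfra, the other PDGF receptor and a gene of fibroblasts and stroma, read 4164 and 4225 in mutant kidneys, against 2092, 1664, 2061 and 2224 in wild-type kidneys, and rose by 1.06 (limma, adjusted p = 7.52e-04), against -0.68 for Pdgfrb. A second Pdgfra probe set of low signal had 0.35 (adjusted p = 0.779). The tropomyosin Tpm2 rose by 0.88 (limma, adjusted p = 0.0123), but did not pass without mutant replicate 1 (0.83, adjusted p = 0.117) or 2 (0.94, adjusted p = 0.0869). Cnn3, a calponin of many cell types, rose by 0.30 (limma, adjusted p = 0.0372). Its probe set also has the _f suffix, so signal of related sequences can enter it. The call of Cnn3 was lost under 9 of 16 alternatives, such as without mutant replicate 1 (0.28). It was also lost without mutant replicate 2 (0.31, adjusted p = 0.216) and on leaving out wild-type replicates 1 (0.29, 0.0830), 2 (0.29, 0.0713) or 3 (0.31, 0.0641).

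**Figure D3:**
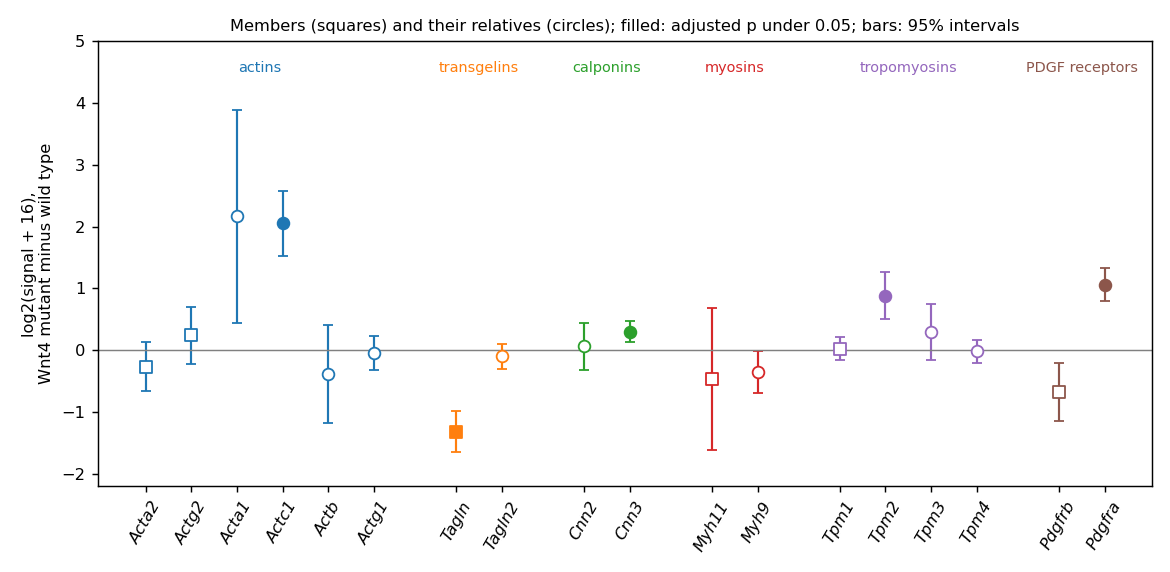
Difference on the log2(signal + 16) scale (y axis, Wnt4 mutant minus wild type) with 95% limma intervals for tested members (squares) and relatives (circles), grouped by protein family, filled where adjusted p was under 0.05. Tagln is below 0 and Tagln2 near it, Pdgfrb lies below 0 and Pdgfra above it, and Actc1 lies near 2.05 while Acta2 and Actg2 hold 0 in their intervals.

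Of 55 other genes of the contractile apparatus, its kinase and phosphatase and its attachments, 40 had a probe set and 29 were tested. Of these, 3 rose, 5 fell and 21 stayed outside the threshold (median difference 0.027). The falls were Npnt, a matrix ligand of integrin alpha8 that epithelium makes (-1.38), the LIM protein Crip1 (-1.09), the LIM proteins Fhl1 (-0.997) and Fhl2 (-0.98), and the light chain Myl12b (-0.48). Npnt, Crip1 and Fhl2 passed under all 16 alternatives. Fhl1 was not past the threshold without mutant replicate 1 (-0.86, adjusted p = 0.0820), and Myl12b not without mutant replicate 1 (-0.50, 0.0739) or 2 (-0.45, 0.112).

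The central kinase and light chain of smooth muscle did not pass. Mylk, the kinase that switches smooth muscle myosin on, read 1963 and 1745 in mutant kidneys, against 2169, 1767, 2143 and 1740 in wild-type kidneys (-0.071, 95% interval -0.35 to 0.21; limma, adjusted p = 0.765). Myl9, the regulatory light chain it phosphorylates, read 589 and 524, against 609, 490, 565 and 515 (0.033, 95% interval -0.27 to 0.33; adjusted p = 0.909). For both genes the groups overlapped. Neither interval meets that of Tagln, which is a description, since Tagln was chosen as the member that passed. The intermediate filament Des had 0.29 (adjusted p = 0.679). The rises were Tpm2, the LIM protein Csrp1 (0.70, adjusted p = 0.0407) and the elastin gene Eln (0.41, adjusted p = 0.0312). A second Csrp1 probe set rose by 0.73 (adjusted p = 0.0226). Without mutant replicate 1, Csrp1 had 0.61 (adjusted p = 0.257) and Eln 0.44 (adjusted p = 0.165). Without mutant replicate 2 they had 0.79 (adjusted p = 0.154) and 0.39 (adjusted p = 0.224). The call of Csrp1 was also lost without wild-type replicates 2 (0.67, adjusted p = 0.0720) or 3 (0.75, 0.0557). That of Eln was lost without wild-type replicates 1 (0.42, adjusted p = 0.0615) or 3 (0.43, 0.0535). Over all 16 alternatives, processing settings included, Csrp1 kept its call in 10 and Eln in 8.

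Of 34 pericyte, mesangial and mural cell genes and ligands, 26 had a probe set and 19 were tested. Of these, 2 rose, 4 fell and 13 stayed outside the threshold (median difference -0.13). Mcam, an adhesion molecule of mural and endothelial cells, read 428 and 397 in mutant kidneys, against 843, 867, 745 and 780 in wild-type kidneys, and fell by 0.94 (limma, adjusted p = 0.00118). Thy1, a surface protein of fibroblasts and perivascular cells, read 1051 and 996 in mutant kidneys, against 466, 477, 497 and 413 in wild-type kidneys, and rose by 1.12 (limma, adjusted p = 6.06e-04). Both passed under all 16 alternatives, and the groups were well apart. The receptor Notch3 of vascular smooth muscle and pericytes rose by 0.66 (adjusted p = 0.0178), with 0.70 (0.105) and 0.62 (0.158) without mutant replicates 1 and 2.

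The other falls of that list were near the threshold: Angpt2 (-0.82, adjusted p = 0.0430), the peptidase Anpep (-0.69, 0.0352), which proximal tubule also makes, and the ligand Pdgfa (-0.54, 0.0488). Without mutant replicate 2 they had -0.84 (adjusted p = 0.188), -0.43 (0.284) and -0.54 (0.236). Each also lost its call without some of the other arrays: Angpt2 without mutant replicate 1 and wild-type replicates 1, 3 or 4, Anpep without wild-type replicates 1 or 2, and Pdgfa without mutant replicate 1 and wild-type replicates 2, 3 or 4 (highest adjusted p = 0.207, 0.0867 and 0.230). Over all alternatives, processing settings included, the call was kept in 8 of 15 for Angpt2, 10 of 16 for Anpep and 5 of 16 for Pdgfa. Pdgfb, the ligand of Pdgfrb, read 146 and 133 in mutant kidneys, against 133, 125, 175 and 167 in wild-type kidneys. Its groups overlapped (-0.083, limma, adjusted p = 0.869). The pericyte channel genes Kcnj8 (-0.13, adjusted p = 0.746) and Abcc9 (-0.20, adjusted p = 0.747) did not pass. Rgs5 exceeded the filter level on 1 array at 1 of its probe sets and was not tested, and no probe set here is named for Cspg4.

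**Figure D4:**
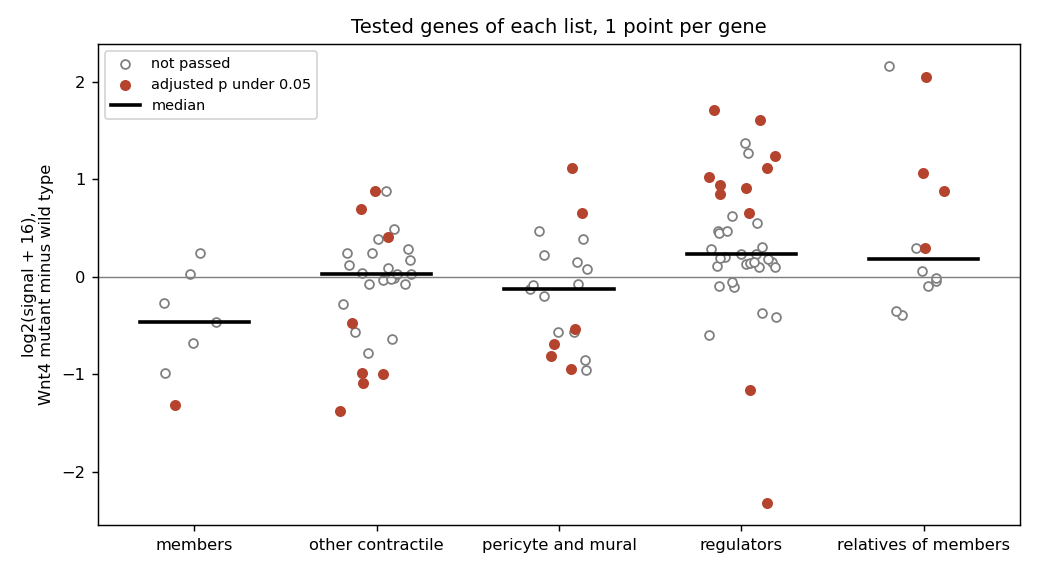
Difference on the log2(signal + 16) scale (y axis, Wnt4 mutant minus wild type), 1 point per tested gene, filled where adjusted p was under 0.05, with a line at each list's median. The line of the 7 members is the value of Myh11 (-0.46), and the medians are 0.027 for other contractile genes, -0.13 for pericyte and mural genes, 0.23 for regulators and 0.18 for relatives, and calls lie on both sides of 0 among other contractile genes, pericyte and mural genes and regulators.

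Of 52 regulators of smooth muscle genes and fate, 41 had a probe set and 38 were tested. Of these, 9 rose, 2 fell and 27 stayed outside the threshold (median difference 0.23). Notch3, 1 of the 9, is also counted among the rises of the pericyte and mural genes. Klf4, a factor known to repress smooth muscle genes, read 633 and 739 in mutant kidneys, against 201, 236, 227 and 142 in wild-type kidneys, and rose by 1.71 (limma, adjusted p = 0.00127). The groups were apart, and the call held under all 16 alternatives. Klf5, a related factor of proliferating smooth muscle, rose by 1.02 (adjusted p = 0.00915), with 0.94 (adjusted p = 0.102) and 1.11 (0.0642) without mutant replicates 1 and 2.

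TGF-beta ligands, which induce contractile genes in mesenchymal cells, differed in opposite directions. Tgfb1 read 38.5 and 55.8 in mutant kidneys, against 403, 267, 366 and 196 in wild-type kidneys, and fell by 2.32 (limma, adjusted p = 0.00185). Its mutant signals were below the filter level, so Tgfb1 was tested only because of its wild-type arrays, and the size depends on the offset. Tgfb3 read 1802 and 1722 in mutant kidneys, against 559, 582, 684 and 459 in wild-type kidneys, and rose by 1.61 (adjusted p = 3.46e-04). Tgfb2 rose by 1.24 (adjusted p = 0.0155), with 0.97 (adjusted p = 0.219) without mutant replicate 2.

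Bmp4, the signal through which Wnt4 has been linked to medullary smooth muscle, read 722 and 761 in mutant kidneys, against 589, 700, 691 and 768 in wild-type kidneys. The groups overlapped, and the difference was 0.11 ± 0.13 (SE; 95% interval -0.18 to 0.40; limma, adjusted p = 0.633), with -0.012 (adjusted p = 0.981) at its other probe set. Ptch1, a receptor and target of Hedgehog signals, rose by 1.12 (adjusted p = 5.13e-04) at its brightest probe set and had 0.56 (adjusted p = 0.149) at another. Hey1, a Notch target, fell by 1.16 (adjusted p = 0.00610), with -1.12 (0.0636) and -1.20 (0.0518) without mutant replicates 1 and 2. No probe set here is named for Srf or Myocd.

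Markers of other cell types moved with these groups. Of 30 skeletal muscle markers, 27 had a probe set, and 7 rose and 0 fell among the 18 tested. Their summed signal was 8480 and 7762 in mutant kidneys, against 2906 to 3638 in wild-type kidneys, and 7 of the 27 (Myf5, Myf6, Myh8, Pgam2, Ryr1, Tnni2 and Tnnt3) were below the filter level on all arrays. Of 20 endothelial markers, 15 had a probe set. Among 14 tested, 4 fell, 0 rose and 10 did not pass, with a median difference of -0.13. Those that did not pass include Cdh5 (-0.10), Kdr (0.12) and Cd34 (0.45). The summed signal of the endothelial list was 7447 and 7614 in mutant kidneys, against 9140 to 9492 in wild-type kidneys, with Vwf below the filter level. Bright genes weigh most in this sum, such as Eng, with a mean of 1625 in mutant and 2438 in wild-type kidneys. Actc1 is itself in the skeletal muscle list. Tnnc1, 1 of the 7 skeletal muscle rises, exceeded the filter level on the 2 mutant arrays alone and was tested only because of them. Nos3, 1 of the 4 endothelial falls, was below the filter level on both mutant arrays and was tested only because of wild-type arrays. The part of either list in the Tpm2, Mcam, Angpt2 and Pdgfrb values was not tested.

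Of 18 markers of renal stroma, the tissue from which mural cells arise, 14 were tested, of which 8 rose and 0 fell. The 6 that did not pass were Cdkn1c (0.35), Penk (0.33), Col3a1 (0.41), Tcf21 (0.13), Lef1 (-0.15) and Tnc (-0.14). The list was not split into cortical and medullary stroma. Its sum was 55216 and 54408 in mutant kidneys, against 33476 to 39301 in wild-type kidneys, with Ecm1 below the filter level on all arrays. Pdgfra is itself 1 of these markers and of the 8 that rose. The part of stroma in the Thy1 value was not tested. Markers of urothelium and ureter overlapped between the groups. Of these 11 genes, 6 had a probe set, 0 of 3 tested passed, and Krt13, Krt5 and Upk2 were below the filter level on all arrays. Their sum was 621 and 520 in mutant kidneys, against 395 to 625 in wild-type kidneys. The sum of steroidogenic adrenal and gonad markers also overlapped, at 3596 and 3417 in mutant kidneys, against 3110 to 3937 in wild-type kidneys. Of their 8 measured genes, 5 (Cyp11a1, Cyp17a1, Hsd3b1, Nr0b1 and Star) were below the filter level on all arrays. The sum rests mainly on the 3 tested, Fdx1, Nr5a1 and Cyp21a1, of which 0 passed. Fdx1 read 2119 on wild-type replicate 4, the array with the highest sum. Nr5a1 alone did not overlap, at 1371 and 1322 in mutant kidneys, against 941 to 1224 in wild-type kidneys (0.31, limma, adjusted p = 0.128).

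**Figure D5:**
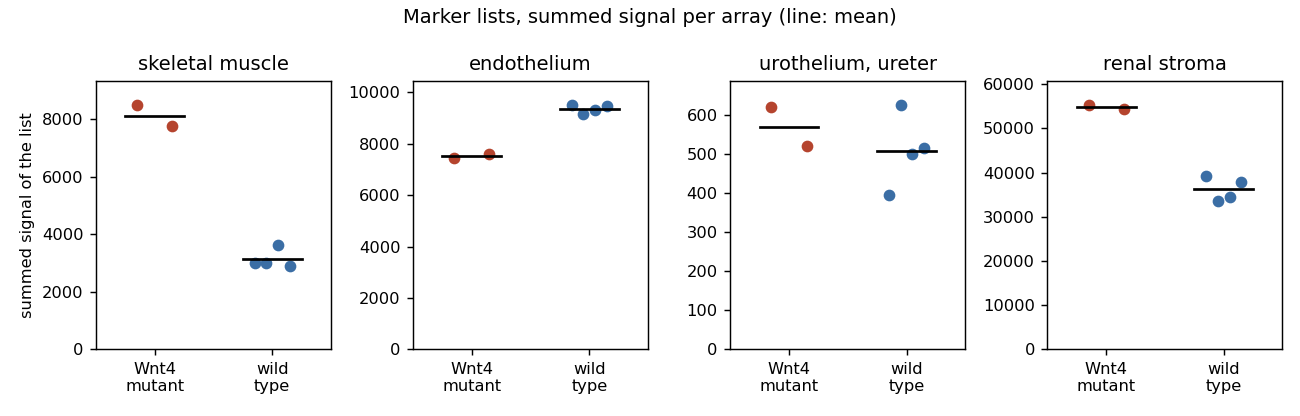
Summed linear signal of 4 marker lists (y axis from 0, a scale of its own in each panel), 1 point per array, with a line at the mean. Skeletal muscle and renal stroma sums lie higher on both Wnt4 mutant arrays than on all wild-type arrays, the endothelial sum lies lower, and the urothelium and ureter sums overlap.

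Genes with profiles like those of the members were found by the smallest root mean square distance between log2 profiles over the 6 arrays, each centred on its wild-type mean. For Tagln these were Rab3ip (distance 0.060), Car2 (0.080) and Pdhb (0.096). Car2, carbonic anhydrase 2, read 297 and 303 in mutant kidneys, against 738, 653, 718 and 831 in wild-type kidneys. For Acta2 they were Ociad1 (0.066), Stam2 (0.067) and Elovl6 (0.074). For Pdgfrb they were the receptor Notch1 (0.079), Angpt1 (0.10), a ligand that mural cells supply to endothelium, and Ap4s1 (0.11). Angpt1 read 91.5 and 82.3 in mutant kidneys, against 149, 96.9, 181 and 144 in wild-type kidneys, and did not pass (-0.60, limma, adjusted p = 0.258). These distances over 6 arrays are descriptions with no test.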

How the data were processed

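Signals of 2 Wnt4 mutant and 4 wild-type arrays were deposited as linear intensity values, made by the authors with GCOS, per the submitters' processing notes (the sources used here name no version). Each array's mean without the lowest and highest values was near 500.3 in the deposited column, so no further normalization was applied. Of 12422 probe sets of genes, 10833 had 1 symbol, 396 several and 1193 none; 10817 matched the RefSeq table of GRCm38.p6 by gene identifier. The 66 control probe sets were left out.

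Probe sets above the 40th percentile of their array on at least 2 arrays were kept (7981). Values were log2(signal + 16), tested with limma 3.58.1 under R 4.3.3 (lmFit, eBayes with a variance trend, no covariate), checked on simulated data. Other genes stand for their probe set of highest mean log2 value. Named genes were all members, up to 5 called genes in each direction of each companion list, Wnt4, and Bmp4, Mylk, Myl9, Des, Rgs5, Pdgfb, Actb and Actg1; Acta1, Tagln2, Kcnj8 and Abcc9 were added after their values were seen. Members and lists were chosen with earlier results of these data known. The number of arrays limits the precision. Alternatives were the offset, filter, normalization, variance model, array weights, replicate block and arrays left out.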

Additional observations from a re-analysis of the deposited data

Results flagged for a closer look

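In 4 of 55 wild-type groups of 4 arrays, among the probe sets of members and named genes, 1 array stood far from the others relative to the group's range; chance alone gives about 1 in 20. Wild-type replicate 2 was low for Myh11 (34.7, against 117 to 127 on the other wild-type arrays). Wild-type replicate 4 was low for the second Bmp4 probe set (155.05) and for Eln (827), and wild-type replicate 1 for a Rgs5 probe set (26.2) that was below the filter level.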

How the results depend on the processing

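The call of Tagln held under all 16 alternatives. The number of lower members, 1 as reported, was 2 with an offset of 64, with quantile normalization, with arrays centred on their medians (Tagln and Smtn in each) and without wild-type replicates 2 and 4 (Tagln and Pdgfrb), and 3 with array weights. With 1 array left out it ran from 1 to 2, and 0 members rose under any alternative. The cause of these changes was not tested. Mutant and wild type share the numbers 1 and 2, but these gave no sign of pairing (correlations of deviations 0.003 and -0.015). The replicate block compares only these numbers, so wild-type replicates 3 and 4 add nothing to its difference. With a replicate block 1 member fell, 362 probe sets were lower and 341 higher over all tested. Values near 0 changed sign for Tpm1 (-0.010 with arrays centred on their medians and without wild-type replicates 2 and 4), Actg1 (0.070 with quantile normalization, 0.020 without wild-type replicate 2, range -0.13 to 0.020 over single arrays left out), Myl9 (-0.0027 with arrays centred, -0.076 without wild-type replicates 2 and 4, -0.015 without wild-type replicate 2, and -0.049 to 0.11 over single arrays left out), Mylk (0.014 without mutant replicate 2, range -0.16 to 0.014 over single arrays left out) and Pdgfb (0.10 with a replicate block). Over all tested probe sets, 488 lower and 371 higher became 738 and 613 with array weights, 198 and 133 without mutant replicate 1, 188 and 114 without mutant replicate 2, and 320 and 255 without wild-type replicate 1. Among companion genes, 438 of 508 values under alternatives kept direction and side of the threshold, 60 lost their call, 2 gained one (Actb, -0.80 with a replicate block, -0.70 when wild-type replicate 4 was left out) and 8 changed sign. With the filter at the 60th percentile Myh11 was not tested.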
